A study of Mus musculus with 2 samples.

Results

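The adipocyte identity genes are 10 genes whose products mark white fat cells: the hormones adiponectin (Adipoq), resistin (Retn) and leptin (Lep), the secreted protease adipsin (Cfd), the fatty acid binding protein Fabp4, the lipid droplet proteins Plin1, Plin4 and Cidec, the glycerol channel Aqp7 and the activin-type receptor Acvr1c. They were taken by gene symbol, with every probe set that the platform annotation assigns to them alone. Of the 10 genes, 8 had such a probe set, 14 probe sets in all, among 18193 named genes of the array. Cfd and Plin1 matched none of the named probe sets and were not analysed here.

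The samples were whole mammary glands of female CD1 mice, an outbred stock bought at 6 weeks of age and then mated. Litters had been set to 6 pups, and pups were taken away at day 10 of lactation, which counts as day 0 of involution. One group was killed at that point (day 0) and the other 1 day later (day 1). Each group was 1 pool of RNA from 5 mice on 1 Affymetrix mouse genome array, so no spread between mice can be measured, no test between the days is possible, and every difference given here is between 2 arrays. The tissue was frozen whole, so a signal stands for all cells of the gland together.

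The mammary gland lies in a pad of white fat. During lactation the milk-secreting epithelium expands and the fat cells around it lose much of their stored lipid, and during involution the epithelium dies back and fat cells fill the pad again. Secretory epithelium also makes fat, and it uses many of the enzymes and droplet proteins of adipocytes for milk. The genes described here are, by contrast, hormones and droplet proteins of fat cells that are not known for a part in milk fat secretion, so they were read as a measure of the adipocyte contribution to each array. Fewer adipocytes and less RNA per adipocyte cannot be told apart in whole tissue.

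The promoters of 5 members are shown because these genes span the range of differences found: Lep and Plin4 had the highest day 1 to day 0 ratios, Cidec and Retn the lowest, and Adipoq is the defining marker of the cell type. Each line gives the 250 bases before the annotated start of the transcript, 5′ to 3′ on the strand of the gene, from the RefSeq annotation of GRCm38.p6, which held a promoter window for 9 of the 10 genes. Capitals mark matches, on either strand, to a C/EBP site (TTGCNNAA), the PPAR core motif (AGGTCA), the PPAR direct repeat (that core 2 times in a row with 1 base between), a CCAAT box (CCAAT) or a TATA box (TATAA). C/EBP proteins and PPAR gamma are the transcription factors that drive fat cell differentiation.
Lep: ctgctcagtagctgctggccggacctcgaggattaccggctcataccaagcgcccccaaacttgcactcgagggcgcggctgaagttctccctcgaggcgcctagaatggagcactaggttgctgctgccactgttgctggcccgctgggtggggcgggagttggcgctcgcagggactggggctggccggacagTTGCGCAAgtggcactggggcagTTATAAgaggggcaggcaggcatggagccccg
Plin4: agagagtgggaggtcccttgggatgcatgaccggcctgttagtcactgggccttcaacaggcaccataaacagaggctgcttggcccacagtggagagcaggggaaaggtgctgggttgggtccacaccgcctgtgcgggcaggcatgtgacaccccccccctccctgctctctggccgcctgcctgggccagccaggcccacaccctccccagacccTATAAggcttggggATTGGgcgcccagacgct
Adipoq: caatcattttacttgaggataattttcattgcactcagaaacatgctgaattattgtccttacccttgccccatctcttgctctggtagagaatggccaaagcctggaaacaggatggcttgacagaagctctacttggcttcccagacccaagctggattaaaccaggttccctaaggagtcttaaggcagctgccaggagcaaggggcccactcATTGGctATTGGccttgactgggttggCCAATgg
Retn: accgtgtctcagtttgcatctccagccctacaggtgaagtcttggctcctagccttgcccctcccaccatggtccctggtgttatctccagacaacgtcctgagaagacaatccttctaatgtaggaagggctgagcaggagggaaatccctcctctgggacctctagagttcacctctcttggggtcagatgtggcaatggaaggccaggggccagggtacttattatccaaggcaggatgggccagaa
Cidec: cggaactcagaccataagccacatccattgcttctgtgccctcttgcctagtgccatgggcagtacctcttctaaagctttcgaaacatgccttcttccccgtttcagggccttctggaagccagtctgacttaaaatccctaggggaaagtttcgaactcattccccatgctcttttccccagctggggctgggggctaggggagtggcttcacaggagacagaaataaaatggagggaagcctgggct

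The Lep window lies at chr6:29059971-29060220 on the plus strand, Plin4 at chr17:56109783-56110032 on the minus strand, Adipoq at chr16:23146286-23146535 on the plus strand, Retn at chr8:3655520-3655769 on the plus strand and Cidec at chr6:113435761-113436010 on the minus strand. In Lep the letters TTGCGCAA began 55 bases before the start, and a TATA box began 31 bases before it; the run there reads as a TATA box on both strands. Plin4 held a TATA box beginning 32 bases before the start and a CCAAT box 18 bases before it. Adipoq held 3 CCAAT boxes within 34 bases of the start and none of the other motifs. No letters of the 5 motifs were found in the windows of Retn and Cidec. A second annotated start of Cidec, at chr6:113434765-113435014, held a C/EBP match.

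Of 32817 promoter windows of this length, 9.57% held the C/EBP letters, 14.0% the PPAR core, 0.0335% the direct repeat, 33.8% a CCAAT box and 22.8% a TATA box. Among the 12 windows of the members, some of them alternative starts of 1 gene, 3 held the C/EBP letters, 2 the PPAR core, 0 the direct repeat, 2 a CCAAT box and 2 a TATA box. The C/EBP letters were in Lep, Cidec and Plin1, and the PPAR core was in Aqp7 only. The 2 windows of Aqp7 overlap and share 1 of these PPAR core matches, so that match is counted in both. These matches are a description of the letters and not of binding.

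The deposited values are MAS 5 signals, a brightness per probe set on a linear scale. Values below 77.7, the median over the 2 arrays with control probe sets left out, were raised to that floor, and a gene was called measured if its brighter array was above it. A gene was represented by its brightest probe set over both days, and the log2 ratio is that of day 1 over day 0, negative where day 1 was lower. Signals of different probe sets are not on a common scale, so a probe set is compared with itself on the other day. Summed signals of marker lists are given only as a measure of their brightness on each array, and their brightest probe sets dominate them. As a yardstick, where 1 gene had several probe sets that passed the floor on each day (3943 genes), their log2 ratios differed with a pooled SD of 0.56; this is a spread among probe sets, and it holds nothing about mice.

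Adipocyte transcripts were present on both arrays, and in the deposited values none of the measured members was as much as 2-fold different between the days. That count depends on the scaling of the arrays. Under the other scalings described below, 0 to 4 members were at least 2-fold higher, as were 9.78% to 48.7% of all measured genes. Of the 8 genes with a probe set, 6 were measured, and all 6 were above the floor on both arrays, so none passed through 1 day alone. Counting differences of at least 2-fold, 0 of 6 were higher and 0 were lower on day 1, where 10.4% of the 13239 measured genes of the array were higher and 13.3% lower. The median log2 ratio of the 6 was 0.06, against -0.12 for all measured genes. Their log2 ratios ranged from -0.64 for Cidec to 0.93 for Lep, an interval that holds 63.2% of all measured genes.

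**Figure D1:**
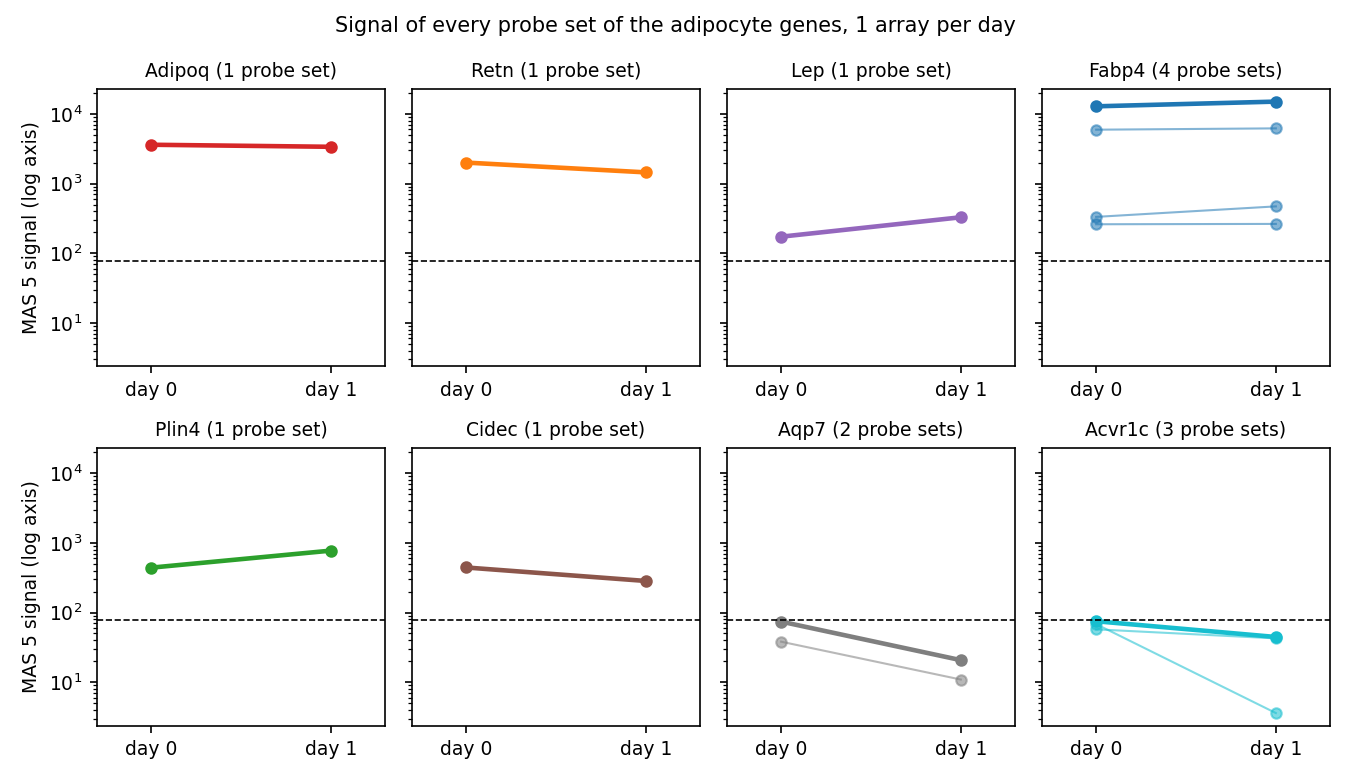
MAS 5 signal (log axis) of every probe set of the 8 adipocyte genes on the day 0 and the day 1 array, 1 array per day; the thick line is the probe set used for the gene, and the dashed line is the floor of 77.7. Adipoq, Retn, Lep, Plin4, Cidec and the 4 probe sets of Fabp4 lie above the floor on both days, and the probe sets of Aqp7 and Acvr1c lie below it; heights of different probe sets are not comparable.

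Among the hormones, Adipoq encodes adiponectin, which fat cells secrete and which raises insulin sensitivity. Its signal was 3613.5 on day 0 and 3376.7 on day 1, a log2 ratio of -0.10. The defining marker of the cell type was thus far above the floor on both arrays, by 46.5 and 43.5 times, and 1.07-fold lower on day 1. That is close to the middle of the array, since 51.2% of measured genes had a lower ratio.

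Retn encodes resistin, a hormone that mouse fat cells secrete. Its signal was 2003.8 on day 0 and 1449.7 on day 1, a log2 ratio of -0.47, or 1.38-fold lower. The difference is smaller than the SD between probe sets of a gene, and 32.3% of measured genes had a lower ratio.

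Lep encodes leptin, which fat cells release in proportion to their stored fat and which reports energy stores to the brain. Its signal was 172.9 on day 0 and 328.5 on day 1, a log2 ratio of 0.93, or 1.90-fold higher. This was the highest ratio of the 6 members, above those of 88.2% of measured genes. The day 0 signal was only 2.23 times the floor, the lowest of the measured members, and 1 probe set carries the value. With a floor at the 75th percentile of all signals the log2 ratio of Lep was 0.39.

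The 3 hormones differed in their log2 ratios on these arrays. The log2 ratio of Lep was above that of Adipoq by 1.02 and above that of Retn by 1.39, and Adipoq was above Retn by 0.37. From the pooled SD of probe sets, a difference between 2 genes has an SD of 0.80, so the first 2 gaps, at 1.29 and 1.75 times that SD, exceed it and the last does not. With the higher floor Lep, at 0.39, was within that SD of Adipoq at -0.10. These gaps are between single probe sets on 2 arrays and have no replicate check.

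Fabp4 is the fatty acid binding protein of fat cells, also known as aP2, and it carries fatty acids in the cytoplasm. It was the only measured member with several probe sets, which gives a check within the gene. The brightest read 12869 on day 0 and 15038.2 on day 1, a log2 ratio of 0.22. The second read 5942.8 and 6209.8 (0.06). The 2 dim ones read 332.8 and 471 (0.50) and 260.8 and 263.8 (0.02). The 4 log2 ratios had a mean on the log2 signal scale of 0.20 and an SD of 0.22, all 4 were above 0, and none reached 2-fold. Of these probe sets, 2 are annotated to the same transcript record, so they are not independent.

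Fabp4 is also made by the endothelium of capillaries and by some macrophages. The 8 endothelial markers, all measured, had a median log2 ratio of 0.04, with Cldn5 at least 2-fold higher and Kdr at least 2-fold lower, and their summed signal was 2402.4 on day 0 and 2501.1 on day 1. Of the 8 macrophage markers, 7 were measured and Itgam was not above the floor on either array. Their median was 0.40, with 3 at least 2-fold higher and 0 lower. Their summed signal was 6483.4 on day 0 and 32403.2 on day 1. Most of it was Cd14 (3816.8 and 29010.6), so the sum mainly follows that gene. The log2 ratio was above 0 for 6 of the 7 and below 0 for Adgre1, which read 665.6 and 375.2 (-0.83). The measured probe sets of Csf1r ranged from -1.12 to 0.45. The part of these cells in the Fabp4 signal was not tested.

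Among the droplet proteins, Cidec, also called Fsp27, fuses small lipid droplets into the single large droplet of a white fat cell. Its signal was 442.9 on day 0 and 283.7 on day 1, a log2 ratio of -0.64, or 1.56-fold lower. This was the lowest ratio of the 6 members. It lay at the lower quartile of all measured genes, which was also -0.64.

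Plin4 encodes a perilipin, a protein that coats lipid droplets and that in fat cells sits on small, newly forming ones. Its signal was 440.3 on day 0 and 773.2 on day 1, a log2 ratio of 0.81, or 1.76-fold higher. It lay above 85.7% of measured genes. Plin4 is also made in skeletal muscle, whose markers were present on both arrays. All 8 were measured, with a median log2 ratio of 0.33 and a summed signal of 16550.4 on day 0 and 17279.1 on day 1. By their brightest probe sets 0 were at least 2-fold different, but another probe set of Ckm had a log2 ratio of -1.09. The part of muscle in the Plin4 signal was not tested.

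The log2 ratios of the 2 droplet proteins thus had opposite signs as deposited. Plin4 was above Cidec by 1.45 log2, a 2.74-fold gap. The widest gap among the members was that between Lep and Cidec, 1.57 log2 or 2.97-fold, which is 1.97 times the SD of a difference between 2 genes. That SD describes a pair chosen beforehand. This pair was picked as the widest of 15, so the SD is no yardstick for it. Of the 15 pairs of measured members, 5 were at least 2-fold apart, and each of these pairs joins Lep or Plin4 to Cidec, Retn or Adipoq. The share of such pairs among all measured genes was not computed. The log2 ratios had an SD of 0.65 over the measured members and 0.93 over all measured genes. The members were thus less spread than the genes of the array.

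**Figure D2:**
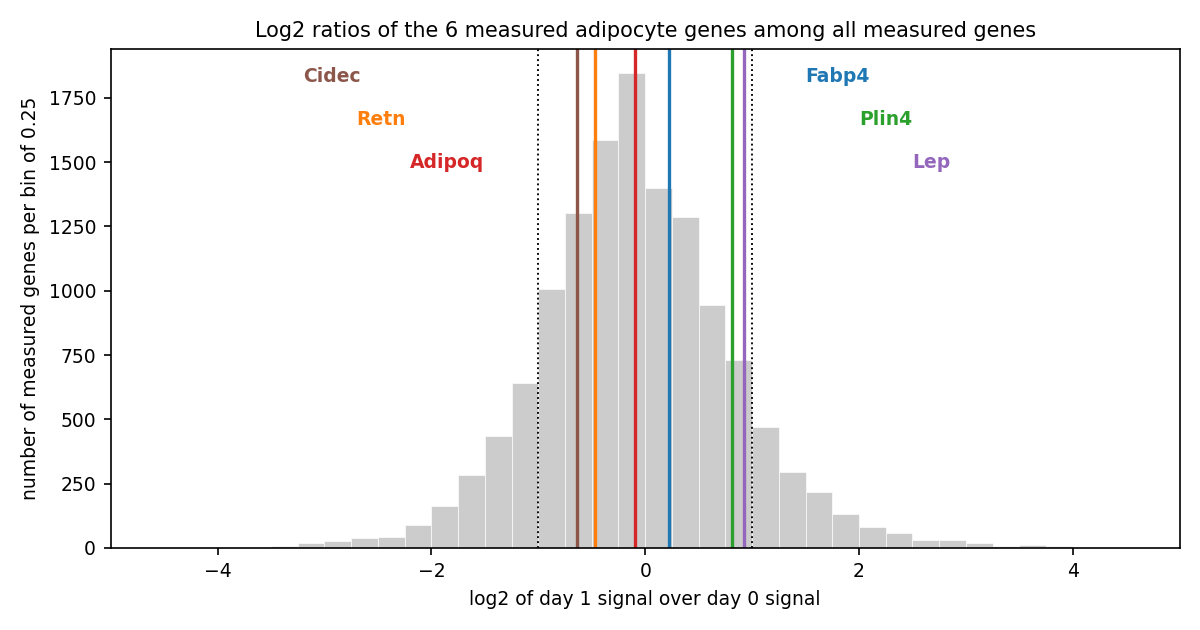
Number of measured genes in each bin of 0.25 of the log2 ratio of day 1 over day 0 (grey bars, 13239 genes), with coloured lines at the 6 measured adipocyte genes and dotted lines at 2-fold. The lines run from Cidec at -0.64 to Lep at 0.93, all between the dotted lines.

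At a threshold of 1.5-fold, Lep and Plin4 were higher and Cidec was lower, 2 and 1 of 6 genes. Over the array 20.4% of measured genes were at least 1.5-fold higher and 27.2% lower. At 3-fold, where 3.85% of measured genes were higher and 4.33% lower, the members again gave 0 and 0. The order of the 6 genes, from the highest log2 ratio, was Lep, Plin4, Fabp4, Adipoq, Retn and Cidec. Neighbours in that order were 0.11, 0.59, 0.32, 0.37 and 0.18 apart, each under the SD of 0.80.

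Aqp7, the channel through which fat cells release glycerol, and Acvr1c, also called ALK7, a receptor of the TGF-beta family that restrains lipolysis in fat cells, were not above the floor on either array. The 2 probe sets of Aqp7 read 74 and 38.1 on day 0 and 20.7 and 10.9 on day 1. The 3 of Acvr1c read 74.9, 68.1 and 57.3 on day 0 and 44.5, 3.6 and 42.5 on day 1. All 5 probe sets were dimmer on day 1, but with the floor of 77.7 no ratio is given for them. Dim probe sets were generally lower on that array: of the 6747 probe sets with a day 0 signal between 38.85 and 77.7, the range that holds 4 of these 5, 74.4% were lower on day 1, with a median log2 ratio of -0.90 without a floor.

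The scaling of the arrays sets where 0 lies. The 2 arrays had the same trimmed mean signal but different medians, 94.2 for day 0 and 60.1 for day 1. Hybridisation controls are sequences added to each hybridisation, and only those below 50% of the highest signal on both arrays were used. These 15 probe sets had a median log2 ratio of -1.16 (range -2.14 to -0.50). Under 6 other scalings the median over all measured genes lay between -0.14 and 0.97. Lep, Plin4 and Fabp4 were above 0 under all 6, Adipoq under 3, and Retn and Cidec under 2. The median of the members was 0.13 to 0.26 above the median of all measured genes as deposited and under the 6 scalings, but with the floor at the 25th percentile the difference was -0.07. Of the scalings, 4 add the same amount to every gene above the floor and cannot change the order of the members; quantile normalization and loess can, and under both the order was that of the deposited values.

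**Figure D3:**
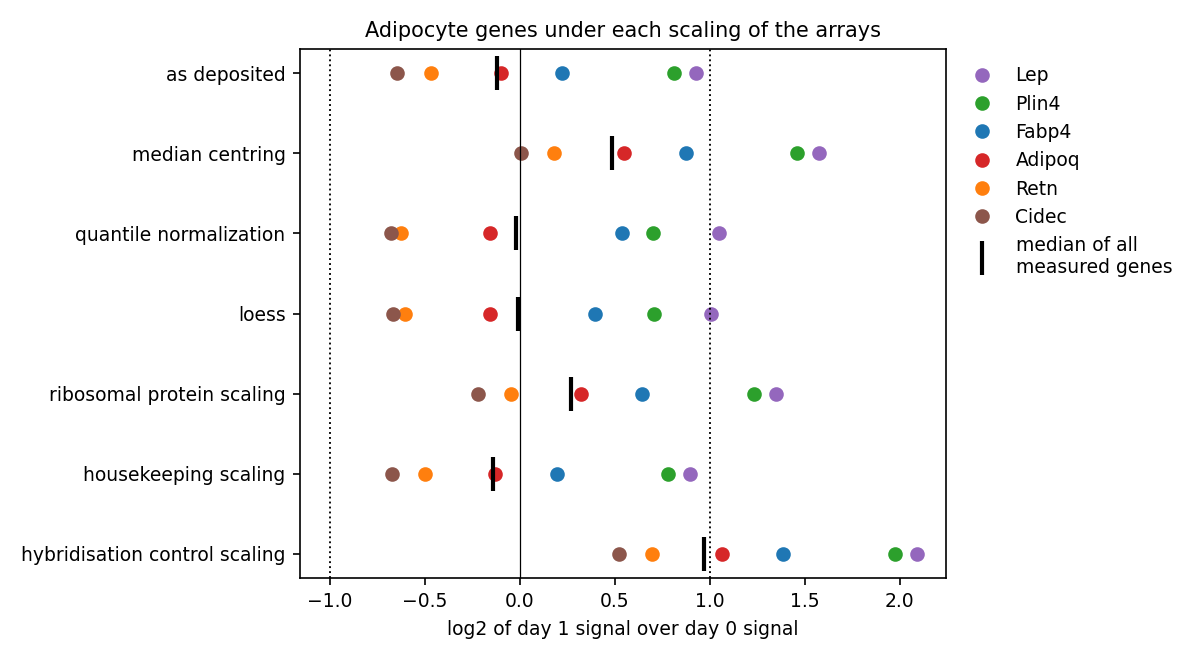
Log2 ratio of day 1 over day 0 of the 6 measured adipocyte genes (coloured points) as deposited and under 6 other scalings, with the median of all measured genes as a black bar and dotted lines at 2-fold. Lep is the highest point and Cidec the lowest in every row, and Lep runs from 0.90 with housekeeping scaling to 2.09 with hybridisation control scaling; median centring and the 3 scalings on a gene or control list shift all genes by 1 amount, while quantile normalization and loess shift each by its own.

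Lep was at least 2-fold higher after median centring (1.57), quantile normalization (1.05), loess (1.01) and ribosomal protein scaling (1.35), and Plin4 after median centring (1.46) and ribosomal protein scaling (1.23). With hybridisation control scaling Lep, Plin4, Fabp4 and Adipoq were all at least 2-fold higher (2.09, 1.98, 1.39 and 1.07), as were 48.7% of all measured genes. Under the other 4 of these scalings the share of all measured genes at least 2-fold higher was 28% (median centring), 11.7% (quantile normalization), 12.2% (loess) and 20.4% (ribosomal protein scaling). None of the 6 measured members was at least 2-fold lower under any scaling. Among all measured genes, the share at least 2-fold lower ran from 2.28% (hybridisation control scaling) to 14.1% (housekeeping scaling). At such shares, 0 of 6 is not particular to the members.

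The fat genes that secretory epithelium also uses had a different pattern from the identity genes. Of the 12 measured genes of that list, 10 were at least 2-fold lower on day 1 and 0 higher, and their median log2 ratio was -1.91. It was between -1.94 and -0.75 over the scalings, below 0 in each. The median of the identity genes was 1.98 log2 above it, and 10 of the 12 were below Cidec, the lowest identity gene. With 1 array per day this gap was not tested, and the identity genes were chosen for not being used for milk fat. Some genes of the shared list were also brighter on day 0 than any probe set was on day 1. The place of some genes relative to Cidec depends on the probe set. Btn1a1 and Gpat4 had other probe sets above it, at -0.49 and -0.41, and Dgat1 had one below it, at -1.31. With the probe sets of a gene averaged, the median of the shared list was -1.81.

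Fabp3, the fatty acid binding protein of muscle and lactating gland, was 10.9-fold lower on day 1 (72791.9 and 6674), against the 1.17-fold higher signal of its relative Fabp4. Fasn, the fatty acid synthase, was 7.18-fold lower (36915 and 5138.4). Cidea, which secretory cells use for milk lipid, was 3.68-fold lower (67825.1 and 18455.3), whereas its relative Cidec was 1.56-fold lower. Plin2, the perilipin of milk fat droplets, read 32356.1 and 29299, a log2 ratio of -0.14. Fabp3, Cidea and Scd1 on day 0 and Plin2 on day 1 were above 50% of the highest signal of the array, a range in which brightness can saturate.

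The paralogs of the members gave 2 genes at least 2-fold higher and 3 lower among 12 measured, with a median log2 ratio of -0.24 that was above 0 under 5 of the 6 scalings. Besides Fabp3 and Cidea, the glycerol channel Aqp3 was the third lower gene. The 2 higher genes were Aqp9, another glycerol channel, and the receptor gene Acvr1, whose other probe sets had log2 ratios down to 0.34 and -1.03. Among the perilipins, Plin3, which coats droplets in most cells, had signals of 696.9 and 1138.3 (0.71) and Plin5, the perilipin of oxidative tissues, 128.6 and 102.2 (-0.33), with another Plin5 probe set at 0.29. Only Plin1 of the 5 perilipins has no value, and none of the other 4 was 2-fold different as deposited.

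Of the transcription factors of the fat cell programme, 6 of 7 were measured, with a median log2 ratio of -0.66, 0 at least 2-fold higher and 1 lower. Pparg, the master regulator of fat cell differentiation, read 238.5 on day 0 and 153.3 on day 1 (-0.64). Cebpa, which acts with it, read 508.4 and 585.6 (0.20). Klf15, a Krüppel-like factor of fat and muscle, was at least 9.98-fold lower, from 775.4 to 14.2, and Ebf2 at least 1.78-fold lower, from 138.2 to 6.2. The median of this list was above 0 under 2 of the 6 scalings, and it was 0.20 with the higher floor.

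Of the genes of lipolysis, the release of fatty acids from stored fat, 7 of 10 were measured, and 1 was at least 2-fold lower and 0 higher. The median log2 ratio was 0.08, and it was below 0 after quantile normalization, after loess and with the probe sets of a gene averaged. The lipases Lipe and Pnpla2 lay within the range of the identity genes by their brightest probe sets. Lipe, hormone-sensitive lipase, read 784.2 and 830 (0.08), and Pnpla2, adipose triglyceride lipase, 3771.2 and 3013.6 (-0.32). The other measured probe set of Pnpla2 had a log2 ratio of -0.67, below the -0.64 of Cidec. G0s2, which inhibits Pnpla2, was 43.2-fold lower on day 1. Npr3, the clearance receptor of natriuretic peptides, which stimulate lipolysis, read 87.1 and 148.8 (0.77).

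Of 14 other adipocyte-enriched genes, 12 were measured, with a median log2 ratio of -0.56, 1 at least 2-fold higher and 1 lower, and the median was above 0 under 2 of the 6 scalings. Gpd1, glycerol 3-phosphate dehydrogenase, was 2.59-fold lower, and its 3 probe sets ranged from -1.37 to -1.26. Pck1, an enzyme of glyceroneogenesis, was 2.65-fold higher, but its other measured probe set had a log2 ratio of -0.41. Rbp4, retinol binding protein, read 743 on day 0 and 479.9 on day 1 (-0.63). Over the 3 lists of transcription factors, lipolysis and other enriched genes, 1 of 25 measured genes was at least 2-fold higher and 3 were lower.

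The receptors and partners of the member products had a median log2 ratio of -0.26 over 9 measured genes of 11, and 1 of them was at least 2-fold lower and 0 higher. That median was above 0 under 3 of the 6 scalings. Lepr, the leptin receptor, was 2.07-fold lower (179.1 and 86.4), from signals near the floor, while Lep itself was 1.90-fold higher. Cfb, the complement protein that adipsin cleaves, read 339.1 and 172.6 (-0.97). The adiponectin receptors Adipor1 and Adipor2 had log2 ratios of 0.79 and -0.49, with other probe sets of Adipor1 down to 0.07 and of Adipor2 up to 0.28.

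**Figure D4:**
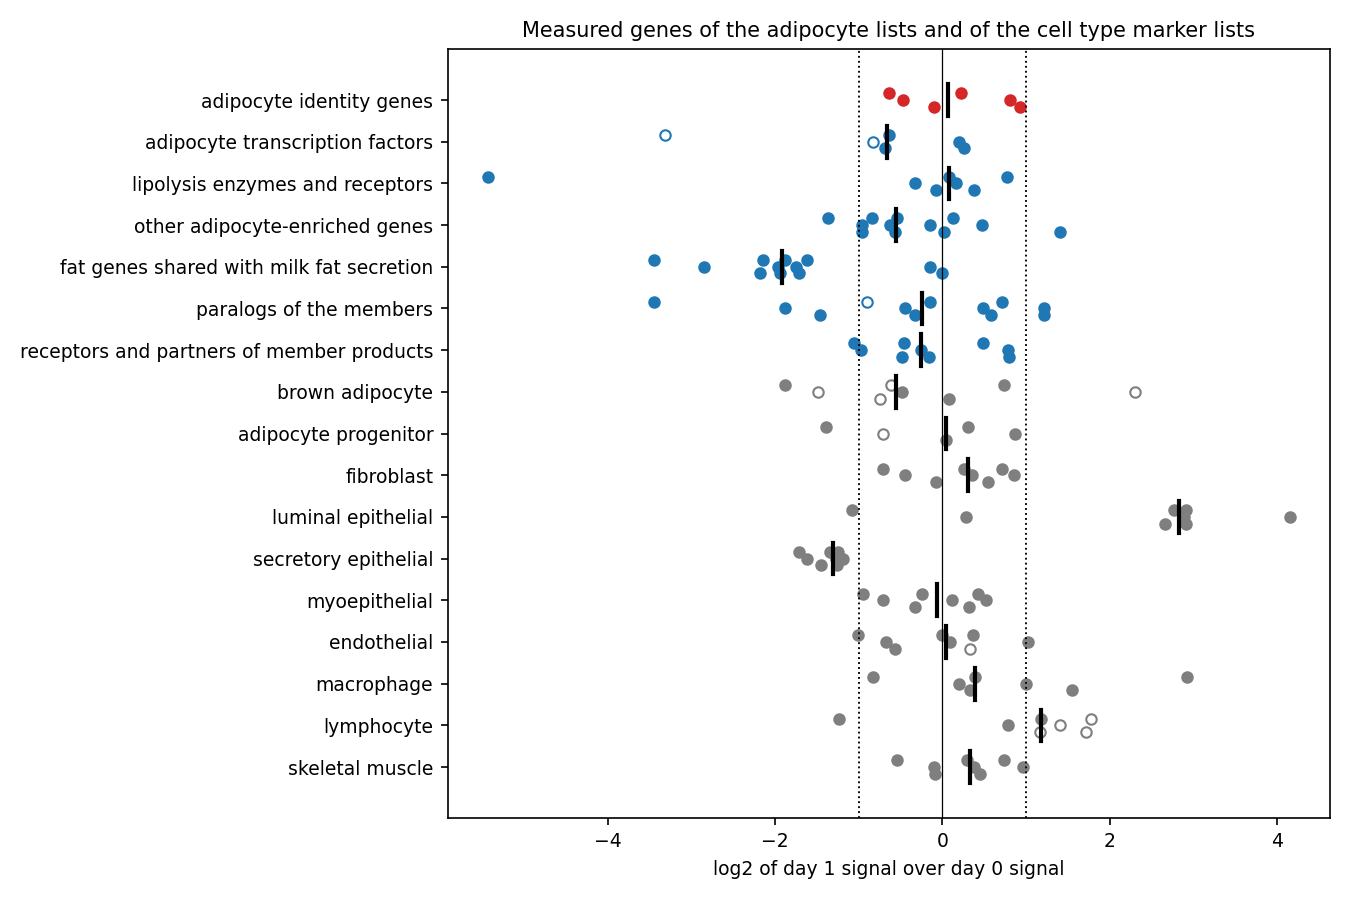
Log2 ratio of day 1 over day 0 of each measured gene (points, open where the gene is at the floor on 1 array and gives a bound) in the identity genes (red), the other adipocyte lists (blue) and the cell type marker lists (grey), with list medians as black bars and dotted lines at 2-fold. The identity genes sit around 0.06, the fat genes shared with milk secretion around -1.91 and the luminal epithelial markers around 2.83.

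Epithelial marker lists are given beside the adipocyte genes. For the 8 luminal epithelial markers the median log2 ratio was 2.83; 6 were at least 2-fold higher and 1 lower, with a summed signal of 39444.8 on day 0 and 84403.8 on day 1. For the 8 secretory markers it was -1.31, and all 8 were at least 2-fold lower, with a summed signal of 600514 and 238318. On each day 6 of them were brighter than 50% of the brightest probe set, where saturation is possible. That highest signal was itself 108570 on day 0 and 40090.2 on day 1. How much of the lower secretory signals comes from this lower ceiling was not tested. Over the scalings the luminal median lay between 2.76 and 3.99 and the secretory median between -1.34 and -0.09. Fibroblast and myoepithelial markers had medians of 0.31 and -0.07, closer to the identity genes. By their brightest probe sets, 0 of 8 were at least 2-fold different in each list. Other probe sets passed 2-fold, with log2 ratios of 1.72 for Mfap5, -1.73 for Krt14 and -1.21 for Oxtr. The part of a changed makeup of the gland in the ratios of the adipocyte genes was not tested.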

How the data were processed

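Per the labels, each array was hybridised with biotin-labelled RNA pooled from 5 mice, and the authors made the values with the Affymetrix statistical algorithms of Microarray Suite 5. The deposited values are linear signal intensities per probe set. Their trimmed mean, without 2% of the probe sets at each end, was the same on both arrays; no source used here names the target of that scaling. The 64 control probe sets were left out of gene results. Of the others, 34945 had 1 gene symbol, 932 had several and were not used, and 9160 were unnamed here. Symbols of 34741 were updated by gene identifier to the RefSeq annotation of GRCm38.p6, used for names and promoter windows only.

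Ratios, the floor and the lists were computed in Python 3.11.15 with numpy and pandas, and the steps were tested on simulated data. The members and lists were chosen with earlier results of these data known. Genes named were the 8 members with a probe set, the 2 genes with the largest absolute log2 ratio in each other list, and Pparg, Cebpa, Lipe, Pnpla2, Cidea, Plin2, Plin3, Plin5 and Rbp4. Aqp3, Aqp9, Acvr1, Scd1, Btn1a1, Gpat4, Dgat1, the adiponectin receptors and the cell type markers named beside a result were added after their values were seen. Alternatives were 6 scalings (each gene keeping its probe set), other floors, a pseudocount of 16 in place of a floor, averaging the probe sets of a gene, leaving out shared probe sets, and thresholds of 1.5-fold and 3-fold. With 1 array per day, the number of arrays limits the precision.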

Additional observations from a re-analysis of the deposited data

How the results depend on the processing

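As deposited, 0 of 6 measured adipocyte genes were at least 2-fold higher or lower (10.4% and 13.3% of all measured genes). The count of higher genes was 2 after median centring and ribosomal protein scaling (28% and 20.4% of all measured genes), 1 after quantile normalization and loess (11.7% and 12.2%), 4 with hybridisation control scaling (48.7%) and 0 with housekeeping scaling (9.78%). The median log2 ratio of the members, 0.06 as deposited, was 0.71 after median centring and 1.23 with hybridisation control scaling. With the lower floor (25th percentile) or a pseudocount of 16 in its place, 8 genes entered and 1, Aqp7, was at least 2-fold lower (-1.73 and -1.29 log2; 26% and 22.5% of all measured genes were lower), and the median was -0.28 in both, against -0.21 for all measured genes. At 1.5-fold, 2 genes were higher and 1 was lower; at 3-fold, 0 and 0. The gap between Lep and Cidec lay between 1.04 and 1.73 log2 over all settings. Of the values of single members and of that gap, 12 shifted by more than the pooled SD of 0.56 between probe sets and 65 by less or not at all. The 12 were the 6 members under median centring and under hybridisation control scaling, which add the same amount to every gene above the floor. Many of the 65 could not shift. A bright gene with 1 probe set keeps its value when only the floor or the use of probe sets changes. No paired analysis was possible because each day has 1 array and the labels give no replicate numbers.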

Other observations

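Among 8 markers of brown adipocytes, fat cells that burn lipid for heat, all were measured on at least 1 array. Their median log2 ratio was -0.55, with 1 at least 2-fold higher and 2 lower, and the median was above 0 under 1 of the 6 scalings. The higher gene was Ucp1, the uncoupling protein that defines these cells, which read 18.8 on day 0 and 384.4 on day 1, at least 4.95-fold higher from a day 0 signal at the floor. The 2 lower genes were Cidea, which secretory epithelium also makes, and Prdm16 (218.2 and 57.4), at least 2.81-fold lower. Of the other brown fat genes, Elovl3 read 129.7 and 41.3, Ppargc1a 119.2 and 30.3, Cox7a1 152.5 and 109.4, Dio2 167.5 and 177.2, and Cox8b 265.7 and 443.4. Each of Ucp1, Cidea, Prdm16, Elovl3, Ppargc1a, Cox7a1 and Cox8b rests on 1 measured probe set. The 3 measured probe sets of Dio2 had log2 ratios from -1.15 to 0.08.

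Of 6 markers of adipocyte progenitors, 5 were measured, with a median log2 ratio of 0.04, 0 at least 2-fold higher and 1 lower. Pdgfra, the receptor that marks these cells, read 192.4 on day 0 and 238.4 on day 1. The lower gene was Dpp4, 2.63-fold lower, whose 3 measured probe sets ranged from -1.55 to -0.05 log2.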
